A study of Ovis aries with 30 samples.

Results

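The aminoacyl-tRNA synthetases are the enzymes that load each amino acid onto its transfer RNA (tRNA). Their genes were taken from the table of read counts per gene by name, as every gene symbol of the form used for this family (a letter for the amino acid followed by ARS, with a closing 2 for a mitochondrial enzyme, and EPRS, FARSA and FARSB), with no measured value used in the choice. The rule gave 36 of the 28524 genes in the table, 20 of them for cytosolic enzymes and 16 for mitochondrial enzymes. GARS and KARS make the glycyl and lysyl enzymes of both compartments and were counted as cytosolic. The mitochondrial histidyl enzyme, HARS2, was not analysed here. The RNA came from perirenal brown adipose tissue (BAT) and thyroid tissue of 15 newborn Romney lambs, each a twin kept with its dam and brought in within its first day after birth. Of these lambs, 6 spent 2 days at 4 °C (cold), 6 spent 2 days at 20–22 °C (ambient temperature, AT), and 3 were sampled at the start (control), with 1 BAT and 1 thyroid library per lamb. Because cold and AT lambs were sampled 2 days later in life, treatment and age cannot be told apart in any comparison with the controls, and only cold against AT compared lambs of the same age. Each library is whole tissue, in which fewer cells of a type and less RNA per cell cannot be told apart.

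Each synthetase recognises an amino acid and the tRNAs that read its codons, so that the set as a whole decides which amino acid the ribosome places at each codon. The cytosolic enzymes serve translation on cytosolic ribosomes, and a separate set, encoded in the nucleus and imported, serves the few proteins made inside mitochondria, all of them parts of the respiratory chain or ATP synthase on which oxidative tissue such as BAT relies. A number of the cytosolic enzymes form the multisynthetase complex around the scaffold proteins AIMP1, AIMP2 and EEF1E1. Many cytosolic synthetase genes are targets of ATF4, the transcription factor of the amino acid response, and WARS, the tryptophanyl enzyme, is also induced by interferon.

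BAT libraries held 31556500 to 37025998 counts and thyroid libraries 25062784 to 30124871. The synthetase genes took 0.0467% to 0.127% of the reads of a BAT library and 0.182% to 0.273% of those of a thyroid library. Levels are given as normalised read counts, the deposited counts divided by size factors from ACTB, RPL19 and HUWE1, set within each tissue. All 36 genes passed the filter on low counts in both tissues, with MARS2 the lowest at 8 reads in the BAT library of AT replicate 5. The libraries matched their tissue by the summed normalised counts of 8 thyroid follicular markers. These sums were at least 1325919 in every thyroid library of the lambs in the fit and at most 1559 in BAT. All 5 brown adipocyte markers had reads in every BAT library. In each thyroid group of these lambs at least 4 of the 5 also had 10 or more reads in every library, so their presence does not separate the tissues. Control 2 was left out of the fits in both tissues, as in the design of the study, and its values are given beside the others. The thyroid library of AT replicate 3 stood apart, with summed skeletal muscle markers of 2553000 normalised counts against 109 to 860 in the other 5 AT thyroid libraries, and thyroid control 1 had 262800 against 54.2 in control 3. Reads of MARS could not be separated from those of ARHGAP9 and DDIT3, which share 71 and 60 of its 2980 exon bases on the opposite strand, nor reads of YARS2 from those of DNM1L over 761 of 3429 bases, if the counting did not use the strand.

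Per kilobase of exon, the family spanned a range of levels in both tissues, from KARS at the top to MARS2, the mitochondrial methionyl enzyme, at the bottom. In BAT, the median over the 14 libraries was 1800 normalised counts per kilobase for KARS, with a range of 1330 to 2330, and 910 for QARS, the glutaminyl enzyme, with a range of 708 to 1150. Both ranges lay apart from each other. At the other end were PARS2, the mitochondrial prolyl enzyme, at 16.4 and MARS2 at 12.1, with a range for MARS2 of 4.46 to 25.4. In thyroid tissue, KARS again stood first at 3720, with a range of 2900 to 4570, followed by QARS at 2000, with a range of 1680 to 2330. The third place differed between the tissues, with SARS, the seryl enzyme, at 744 in BAT and CARS2, the mitochondrial cysteinyl enzyme, at 1760 in thyroid tissue. PARS2 at 28.5 and MARS2 at 27.6 closed the thyroid order and did not differ beyond their spread.

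**Figure D1:**
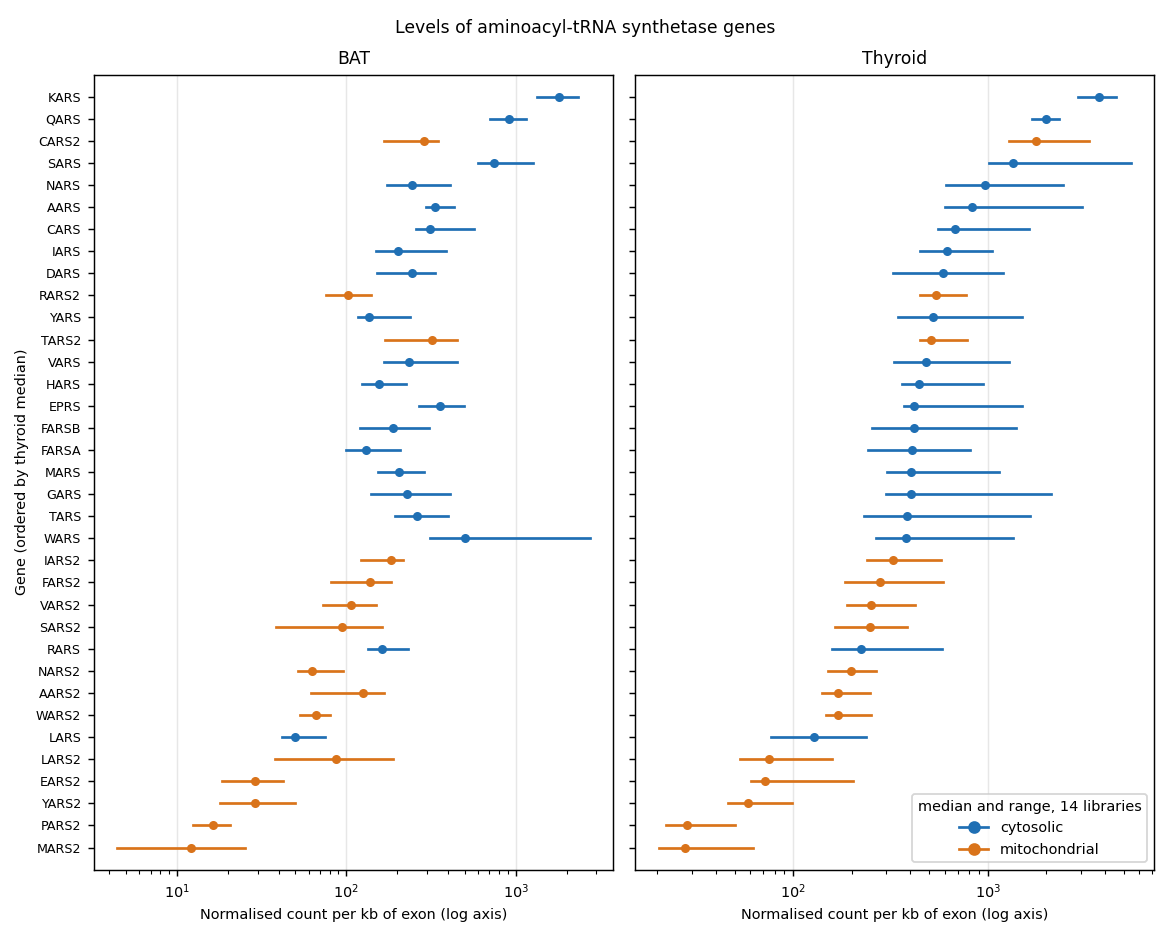
Level of each of 35 synthetase genes in normalised counts per kilobase of exon on a log axis, in BAT and thyroid tissue (points, medians; bars, range over the 14 libraries in the fit). The scales are set within each tissue, KARS is first in both at 1800 and 3720, and MARS2 is last in both at 12.1 and 27.6.

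For 15 pairs of enzymes that charge the same amino acid in the cytosol and in mitochondria, the cytosolic gene had the higher level per kilobase in 13 pairs in BAT and in 12 in thyroid tissue, by the median of the ratio over 14 libraries. Across pairs in BAT that ratio had a median of 3.99, from 0.671 to 21.8, and across pairs in thyroid tissue a median of 5.11, from 0.389 to 15.4. EPRS was the cytosolic gene both for PARS2 (21.8 in BAT) and for EARS2 (12.5 in BAT), so these pairs are not independent. The phenylalanyl enzyme, with FARSA and FARSB in the cytosol, was left out of the pairs. The pair for threonine was the one with the higher mitochondrial gene in both tissues, with TARS to TARS2 at 0.798 in BAT and 0.749 in thyroid tissue. For leucine the mitochondrial gene LARS2 was the higher in BAT alone, with a ratio of 0.671 there and 1.58 in thyroid tissue. For arginine and cysteine it was the reverse, with ratios of 1.75 and 1.12 in BAT and 0.426 and 0.389 in thyroid tissue. Among these 4 pairs the range over libraries included 1 in both tissues, except for arginine in BAT (1.19 to 2.35), so that the order within a pair was not the same in every lamb.

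The first question was how the family in BAT differed between lambs kept for 2 days and the controls. In cold lambs, 31 of the 36 genes had lower fitted levels than the controls, and 2 passed edgeR's quasi-likelihood test at an adjusted p under 0.05, VARS and YARS, both lower. At the same threshold 0.879% of the 14905 genes tested were lower and 0.604% higher, and no synthetase gene was higher. The median log2FC was −0.48 over the 20 cytosolic genes, of which 18 were lower, −0.34 over the 16 mitochondrial genes, of which 13 were lower, and −0.0989 over all genes tested. In AT lambs, 26 of 36 genes had lower fitted levels, and 5 passed the test, all lower: MARS2, GARS, VARS, YARS and FARSB. Here 6.15% of all genes tested were lower and 3.15% higher. The median log2FC was −0.47 over the cytosolic genes, −0.13 over the mitochondrial genes and −0.031 over all genes. With the rule of the study, which adds a |log2FC| of at least 1, the count of lower genes was 0 in cold, against 0.637% of all genes, and 1 in AT, MARS2, against 3.21%. The cold and AT comparisons share their control libraries, so their values are not independent. Sums of some cell type marker lists were lower too, though a sum can hide a member that goes the other way. The summed normalised counts of the 5 brown adipocyte markers were 23899 and 28783 in controls 3 and 1, from 5736 to 17615 in cold and from 1421 to 17688 in AT, without overlap. The paper reports PRDM16, a member of that list, as higher in BAT of AT lambs. The 4 endothelial markers summed to 41250 to 46451 in these controls, 32231 to 47070 in cold and 25160 to 34623 in AT, overlapping the controls in cold. The 5 general adipocyte markers summed to 82316 to 87094 in these controls, 38251 to 77903 in cold and 27823 to 108262 in AT. In AT they spanned the controls. The part of these shifts in the synthetase differences was not tested.

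VARS, the valyl enzyme, read 1864 and 1489 normalised counts in BAT controls 1 and 3, and 955 in control 2. The 6 cold lambs ran from 690 to 1046 with a median of 810, and the 6 AT lambs from 744 to 1322 with a median of 982. Both treated groups lay below controls 1 and 3, and both overlapped control 2. The log2FC was −0.97 ± 0.222 (SE) in cold with an adjusted p of 0.0416 by edgeR's quasi-likelihood test, and −0.74 ± 0.224 in AT with an adjusted p of 0.0499. With all 3 controls in the fit, neither passed, at −0.68 (adjusted p = 0.0841) and −0.44 (adjusted p = 0.211). The cold call was also lost in 10 of the 14 fits that left out 1 lamb, with adjusted p-values up to 0.276 and a log2FC of −0.46 with control 2 in place of control 1. The AT call was lost in 11 of 14, with adjusted p-values up to 0.622 and a log2FC of −0.2 with the same change of control.

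YARS, the tyrosyl enzyme, read 586 and 533 in BAT controls 1 and 3, and 663 in control 2. Cold lambs ran from 303 to 394 with a median of 332, and AT lambs from 290 to 377 with a median of 336. No treated lamb reached any of the 3 controls. The log2FC was −0.74 ± 0.156 in both comparisons, with adjusted p-values of 0.0325 in cold and 0.011 in AT by the same test, and 0.0111 in cold with all 3 controls. In cold, the adjusted p rose to 0.0541 without cold replicate 1 and to 0.0625 without cold replicate 6.

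GARS read 888 and 1014 in BAT controls 1 and 3, and 1259 in control 2. Cold lambs ran from 430 to 588 with a median of 536, and AT lambs from 348 to 725 with a median of 556. Here too no treated lamb reached a control. The edgeR log2FC was −0.79 ± 0.213 in AT, which passed (adjusted p = 0.0298), and −0.85 ± 0.212 in cold, which did not (adjusted p = 0.0564). The AT call was lost with TMM, edgeR's scaling over all tested genes (adjusted p = 0.0649), and the cold value passed with all 3 controls (adjusted p = 0.0172).

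MARS2 was the member with the most negative log2FC in BAT, at low counts. Its normalised counts were 72.2 and 74.9 in controls 1 and 3, and 131 in control 2. They ran from 23.1 to 40.1 in cold lambs with a median of 37.7, and from 13.2 to 37 in AT lambs with a median of 28.3. No treated lamb reached a control in either group. By edgeR the log2FC was −1.49 ± 0.378 in AT (adjusted p = 0.0229) and −1.09 ± 0.38 in cold (adjusted p = 0.142). FARSB, a subunit of the phenylalanyl enzyme, was called in AT at −0.71 ± 0.192 (adjusted p = 0.0303), a call that TMM scaling lost (adjusted p = 0.066).

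**Figure D2:**
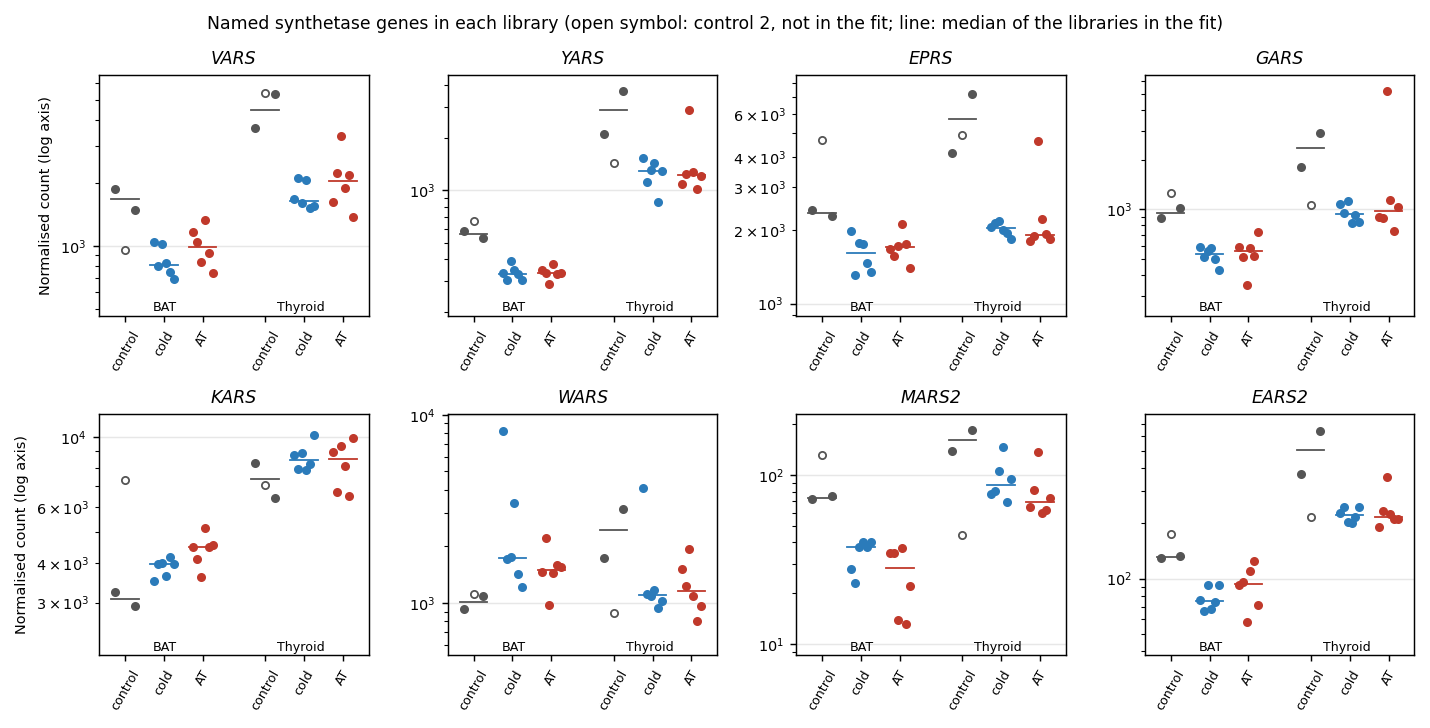
Normalised read counts on a log axis of VARS, YARS, EPRS, GARS, KARS, WARS, MARS2 and EARS2 in every library by tissue and group (filled points, libraries in the fit; open points, control 2). In BAT the cold and AT points of YARS, GARS and MARS2 all lie below the controls, and in thyroid tissue AT replicate 3 lies above the rest of its group for EPRS, YARS and GARS.

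The same comparison can be made without a model, by counting genes with no overlap between treated and control lambs. In BAT, all 6 cold lambs lay below controls 1 and 3 for 17 genes, 13 cytosolic and 4 mitochondrial, where 15.7% of all genes tested did so, and above them for 3, WARS2, KARS and WARS, where 8.89% did so. Adding control 2 left 13 lower, against 7.33% of all genes, and 1 higher, WARS, against 6.13%. All 6 AT lambs lay below controls 1 and 3 for 15 genes, against 15.3%, and below all 3 controls for 12, against 7.17%.

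KARS, the gene with the highest level in the family, was not called in any comparison with the controls. In BAT it read 3245 and 2937 in controls 1 and 3, with 7332 in control 2, from 3501 to 4177 in cold lambs with a median of 3977, and from 3610 to 5158 in AT lambs with a median of 4490. The treated lambs all lay above controls 1 and 3 and all below control 2. Its edgeR log2FC was 0.33 ± 0.187 in cold (adjusted p = 0.376) and 0.51 ± 0.189 in AT (adjusted p = 0.101). With all 3 controls it was −0.165 in cold, so the sign of this difference depended on 1 control lamb. Of the 8 genes of the multisynthetase complex (DARS, EPRS, IARS, KARS, LARS, MARS, QARS and RARS), none was called in BAT in either comparison. Their median log2FC in cold was −0.411, beside −0.565 over the 12 cytosolic genes outside the complex.

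In thyroid tissue the median fitted differences from the controls were larger than in BAT, for the family and for all genes. The direct test between the tissues, given below, called no synthetase gene. In cold lambs, 33 of the 36 genes had lower fitted levels than the controls, and 12 passed edgeR's quasi-likelihood test, all lower, where 16.9% of the 16122 genes tested were lower and 2.34% higher. The 12 were the cytosolic genes EPRS, VARS, YARS, NARS, FARSA, LARS, IARS and HARS and the mitochondrial genes EARS2, FARS2, LARS2 and AARS2, and 5 of them also had a log2FC of −1 or below, against 6.15% of all genes. The median log2FC was −1.02 over the cytosolic genes, −0.47 over the mitochondrial genes and −0.28 over all genes. In AT lambs, 34 of 36 had lower fitted levels and 10 passed the test, all lower, where 18.7% of all genes were lower and 2.23% higher. These were EPRS, VARS, YARS, NARS, LARS, IARS and HARS, with the mitochondrial EARS2, MARS2 and FARS2, and 4 of them reached a log2FC of −1, against 5.98% of all genes. The medians were −0.75 over cytosolic genes, −0.43 over mitochondrial genes and −0.28 over all genes. Marker sums differed from the controls here too, but not all in the same direction. The 8 thyroid follicular markers summed to 2877477 and 5881010 in controls 1 and 3. They summed to 1799910 to 2711661 in cold and to 1325919 to 2427208 in AT, without overlapping those 2 controls. Control 2, at 1930000, lay within both treated ranges. The 4 endothelial markers summed to 16978 to 25393 in controls 1 and 3, 8879 to 13258 in cold and 7276 to 17486 in AT. Macrophage markers had higher medians, at 1434 in cold and 1135 in AT, against 896 to 976 in the controls. Lymphocyte markers did so as well, at 374 and 435 against 213 to 341, and the treated ranges of both lists overlapped the controls. The part of these marker shifts in the synthetase differences was not tested.

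The scaling set part of these thyroid values. TMM scaling brought the median of all genes from −0.28 to 0.0162 in cold and to 0.0486 in AT. Under it the cytosolic median was −0.69 in cold and −0.43 in AT, and the mitochondrial median −0.16 and −0.11. The calls went from 12 lower to 3 lower and 1 higher in cold, where 4.97% of all genes were then lower and 3.9% higher, and from 10 lower to 2 lower and 1 higher in AT, where 4.7% were lower and 4.03% higher. The change of scale thus moved the family and all genes together, and under both scalings the cytosolic median lay farther below the median of all genes than the mitochondrial median did.

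**Figure D3:**
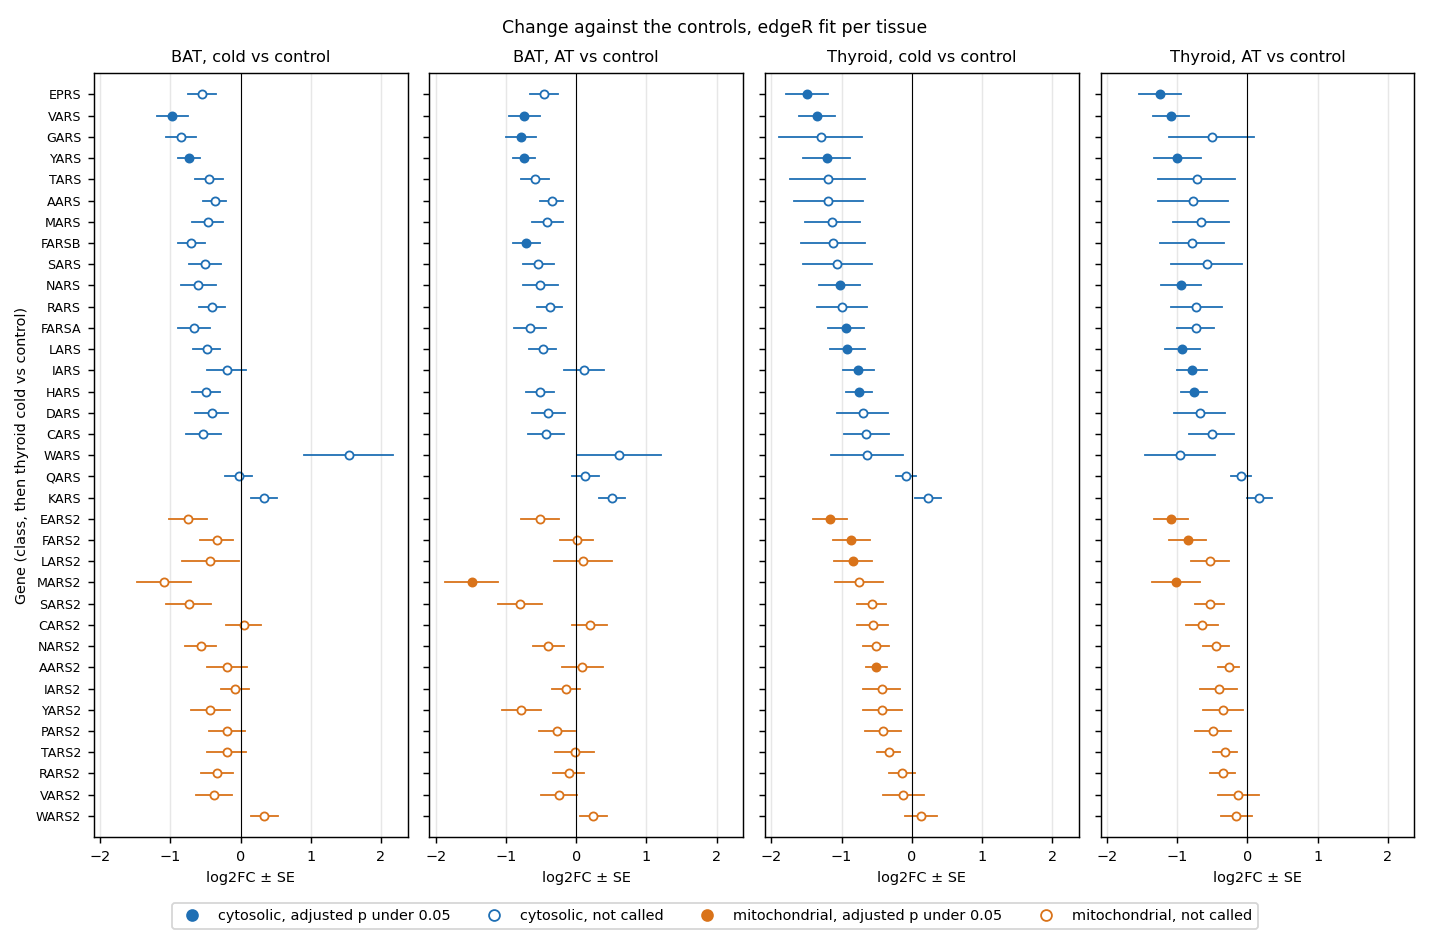
Log2FC against the controls with its SE for 35 synthetase genes in cold and AT lambs, in BAT and thyroid tissue (filled points, adjusted p under 0.05 by edgeR's quasi-likelihood test; open points, not called). In BAT 31 points in cold and 26 in AT lie below zero, in thyroid tissue 33 and 34, and no filled point lies above zero.

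The thyroid library of AT replicate 3 set the spread of its group for most cytosolic genes. It was the highest of its 6 for 18 of the 20 cytosolic genes and for 8 of the 16 mitochondrial genes, where it was the highest for 34.1% of all genes tested. Its summed cytosolic synthetase count was 84249, against 33403 to 41591 in the other 5 AT lambs, and its ratio to their median was 2.43 for the median cytosolic gene, 1.09 for the median mitochondrial gene and 1.06 for the median gene. Other genes of the amino acid response stood with them: it was the highest for 19 of 21 genes in a list of ATF4 and its targets outside the family, with a median ratio of 3.54. For ASNS, asparagine synthetase, it read 1996 normalised counts against 313 to 359, and for CHAC1, a glutathione-degrading enzyme induced by ATF4, 1725 against 10.6 to 35.2. The same library held the skeletal muscle signal given above, and the part of either in the synthetase levels was not tested.

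Without that library, 22 genes were called lower in each thyroid comparison, 17 cytosolic and 5 mitochondrial, including all 12 of the cold and all 10 of the AT comparison. The share of all genes called lower rose as well, to 25.9% in cold and 30% in AT. The cytosolic median in AT went from −0.75 to −1.11 and that in cold remained at −1.02. GARS, not called with that library, was among the 22. In thyroid tissue it read 1801 and 2923 in controls 1 and 3, with 1069 in control 2, from 831 to 1128 in cold lambs with a median of 943, and from 743 to 5238 in AT lambs with a median of 972. The 5238 was AT replicate 3, above every other thyroid library. The edgeR log2FC was −1.30 ± 0.587 in cold (adjusted p = 0.133) and −0.51 ± 0.607 in AT (adjusted p = 0.571) with it, and −1.30 ± 0.184 (adjusted p = 0.000301) and −1.33 ± 0.19 (adjusted p = 0.000262) without it.

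**Figure D4:**
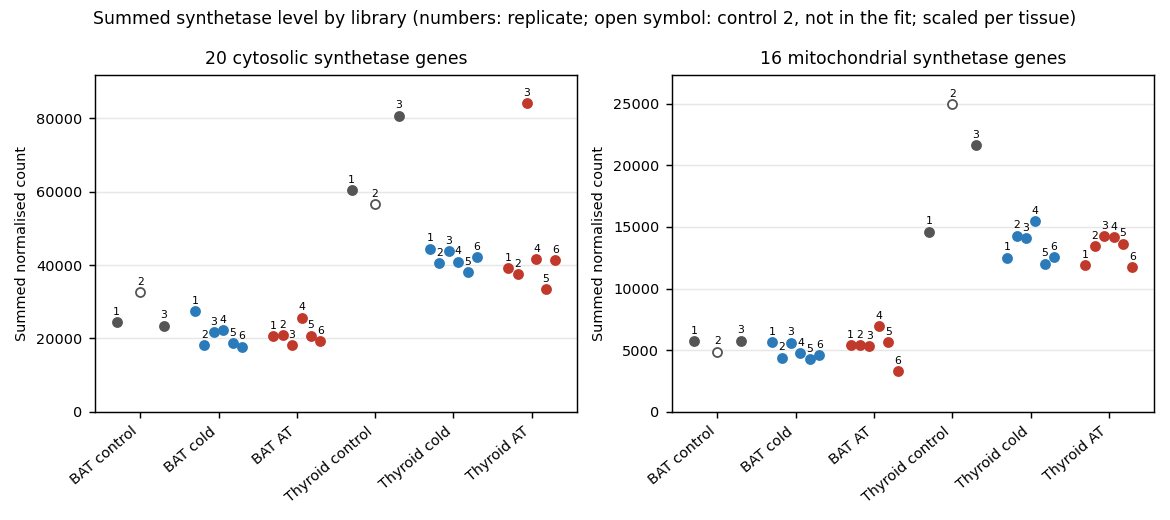
Summed normalised read counts of the 20 cytosolic and the 16 mitochondrial synthetase genes in each library, numbered by replicate, for BAT and thyroid tissue (open points, control 2, outside the fit). Thyroid AT replicate 3 stands at 84249 for the cytosolic genes, above the 33403 to 41591 of the other AT lambs, and does not stand apart for the mitochondrial genes at 14254.

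EPRS, which makes the joined glutamyl and prolyl enzyme of the complex, had the most negative log2FC in both thyroid comparisons. It read 4125 and 7253 in controls 1 and 3, and 4899 in control 2. Cold lambs ran from 1842 to 2188 with a median of 2034, and AT lambs from 1800 to 4654 with a median of 1907. Cold lambs all lay below the 3 controls, as did the AT lambs other than replicate 3. In the edgeR fit the log2FC was −1.49 ± 0.298 in cold (adjusted p = 0.00589) and −1.25 ± 0.3 in AT (adjusted p = 0.0112). Both calls held under TMM scaling, at −1.16 (adjusted p = 0.0169) and −0.91 (adjusted p = 0.0456).

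VARS read 3641 and 5301 in thyroid controls 1 and 3, and 5399 in control 2. Cold lambs ran from 1521 to 2114 with a median of 1641, and AT lambs from 1368 to 3335 with a median of 2032. All 12 treated lambs lay below all 3 controls, with AT replicate 3 the nearest to them. The edgeR log2FC was −1.35 ± 0.253 in cold (adjusted p = 0.00421) and −1.09 ± 0.256 in AT (adjusted p = 0.01), and under TMM scaling −1.04 (adjusted p = 0.0146) and −0.75 (adjusted p = 0.0519).

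YARS read 2104 and 3691 in thyroid controls 1 and 3, but 1441 in control 2. Cold lambs ran from 851 to 1524 with a median of 1296, and AT lambs from 1013 to 2881 with a median of 1223. Cold lambs lay below controls 1 and 3 but overlapped control 2. The edgeR log2FC was −1.21 ± 0.335 in cold (adjusted p = 0.0236) and −1 ± 0.337 in AT (adjusted p = 0.0482). The cold call was lost with all 3 controls (−0.95, adjusted p = 0.0518), and with controls 1 and 2 in place of 1 and 3 the value was −0.51 (adjusted p = 0.334).

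EARS2, the mitochondrial glutamyl enzyme, was the mitochondrial gene with the most negative log2FC in thyroid tissue. It read 371 and 640 in controls 1 and 3, and 218 in control 2. Cold lambs ran from 202 to 247 with a median of 222, and AT lambs from 191 to 359 with a median of 217. All treated lambs lay below controls 1 and 3, and control 2 lay among them. By edgeR the log2FC was −1.17 ± 0.241 in cold (adjusted p = 0.00656) and −1.09 ± 0.242 in AT (adjusted p = 0.00783). With all 3 controls the cold value was −0.87 (adjusted p = 0.0389), and the AT value no longer passed at −0.78 (adjusted p = 0.0624).

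Other calls in thyroid tissue ran from −1.03 ± 0.287 for NARS, the asparaginyl enzyme, down in size to −0.51 for AARS2, the mitochondrial alanyl enzyme, in cold, and from −1.02 for MARS2 to −0.76 for HARS, the histidyl enzyme, in AT. All 6 cold lambs lay below controls 1 and 3 for 23 genes, 17 cytosolic and 6 mitochondrial, where 28.5% of all genes tested did so, and below all 3 controls for 10, where 12.2% did so. For AT the counts were 8 genes against 21.7%, and 2 genes against 9.18%. With control 2 in place of control 3, 6 genes were called in thyroid tissue in cold and 5 in AT. The share of all genes called in those fits is not given here.

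KARS and QARS, first and second in level, had fitted differences near zero in thyroid tissue. KARS read 8263 and 6420 in controls 1 and 3, and 7031 in control 2, with a median of 8473 in cold lambs (7843 to 10095) and of 8517 in AT lambs (6496 to 9914). Its edgeR log2FC was 0.23 ± 0.183 in cold (adjusted p = 0.395) and 0.17 ± 0.182 in AT (adjusted p = 0.526). QARS read 4993 and 5417 in controls 1 and 3, and its medians were 4800 in cold and 4973 in AT. In control 2 QARS read 8230, above every treated lamb. Neither gene was called in BAT or thyroid tissue, and the groups overlapped in thyroid tissue for both. The 8 genes of the complex had a median log2FC of −0.838 in thyroid tissue in cold, beside −1.09 over the 12 cytosolic genes outside it.

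The second question was whether cold lambs differed from AT lambs of the same age. No synthetase gene was called in BAT or in thyroid tissue by edgeR's quasi-likelihood test, nor by DESeq2. In BAT 0.309% of all genes tested were called, and in thyroid tissue 0. At an unadjusted p under 0.05 there was 1 gene in BAT, WARS, and 1 in thyroid tissue, AARS2 at −0.24. So few among the genes of the family can pass that threshold by chance. The median log2FC of cold against AT in BAT was −0.0219 over cytosolic genes and −0.14 over mitochondrial genes, beside −0.0547 over all genes, and in thyroid tissue −0.20 and −0.0122 beside 0.00478. The thyroid cytosolic median moved to 0.1 without AT replicate 3. For no synthetase gene did all cold lambs lie on 1 side of all AT lambs, where in BAT 0.154% of all genes did so on the lower and 0.537% on the higher side, and in thyroid tissue 0.0744% and 0.118%. GARS, at −0.059 ± 0.157 in BAT (adjusted p = 0.89) and −0.79 ± 0.445 in thyroid tissue (adjusted p = 0.922), and KARS, at −0.18 ± 0.13 (adjusted p = 0.569) in BAT, did not pass.

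WARS had the highest fitted log2FC of the family in BAT in cold and did not pass the test. It read 932 and 1085 in controls 1 and 3, and 1119 in control 2, and ran from 1221 to 8186 in cold lambs with a median of 1726 and from 975 to 2226 in AT lambs with a median of 1502. All cold lambs lay above all 3 controls, but the 2 highest, replicate 1 at 8186 and replicate 4 at 3381, stretched the group. In the edgeR fit the log2FC was 1.54 ± 0.633 in cold (adjusted p = 0.208), 0.61 ± 0.596 in AT (adjusted p = 0.552) and 0.93 ± 0.409 for cold against AT (adjusted p = 0.379). Without cold replicate 1 the cold value was 0.92 ± 0.37 (adjusted p = 0.213). In thyroid tissue WARS read 1734 and 3146 in controls 1 and 3, and 887 in control 2, with 940 to 4059 in cold lambs (median 1103) and 798 to 1940 in AT lambs (median 1154). The 4059 again came from cold replicate 1, the same lamb. Without it, WARS was called lower in thyroid tissue, at −1.19 ± 0.278 in cold (adjusted p = 0.015) and −0.95 ± 0.271 in AT (adjusted p = 0.0265), whereas with it the values were −0.64 ± 0.509 (adjusted p = 0.398) and −0.96 ± 0.502 (adjusted p = 0.183).

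The same lamb carried the highest interferon signal. The summed normalised counts of 13 interferon-stimulated genes were 32860 in BAT of cold replicate 1, against 4202 to 13860 in the other cold lambs, and 53310 in its thyroid tissue, against 6205 to 11660. Among the 12 treated lambs, the log2 level of WARS in BAT followed the mean log2 level of the interferon-stimulated genes with Pearson's r = 0.778 (permutation p = 0.0231, adjusted p = 0.0462 over the 2 tissues tested, two-sided) and Spearman's rho = 0.441 (permutation p = 0.155, adjusted p = 0.31). Leaving out the 2 lambs farthest from the median gave r = 0.565, and within groups r was 0.817 over the 6 cold and 0.648 over the 6 AT lambs. The 6 cold lambs include replicate 1, the highest of them in both measures, and r within cold was not computed without it. In thyroid tissue r was 0.8 (permutation p = 0.0874), rho was 0.189 (permutation p = 0.565) and r without the 2 farthest lambs was −0.0135, so there the relation rested on those lambs. Of these 13 genes, 4 were called higher in BAT in each comparison with the controls, ISG15 among them in cold with a log2FC of 5.86, where 0.604% of all genes were higher in cold and 3.15% in AT. In thyroid tissue 6 were called higher in cold, against 2.34% of all genes, and 3 in AT, against 2.23%.

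Of the 3 scaffold genes of the multisynthetase complex, EEF1E1 was called lower in BAT in both comparisons with the controls and in thyroid tissue in cold, AIMP2 in thyroid tissue in cold, and AIMP1 in none. EEF1E1, also known as AIMP3, read 302 and 251 in BAT controls 1 and 3, and 478 in control 2, with 125 to 157 in cold lambs (median 153) and 97.6 to 148 in AT lambs (median 125). No treated lamb reached a control. Its edgeR log2FC was −0.93 ± 0.197 in cold (adjusted p = 0.0325) and −1.15 ± 0.195 in AT (adjusted p = 0.00449), and the cold call was lost with TMM scaling (adjusted p = 0.0532). In thyroid tissue it read 672 and 726 in controls 1 and 3, and 356 in control 2, with medians of 250 in cold (215 to 377) and 230 in AT (218 to 793, the highest in replicate 3). The thyroid log2FC was −1.39 ± 0.416 in cold (adjusted p = 0.0322; 0.0545 with all 3 controls and 0.0919 with TMM scaling) and −1.12 ± 0.42 in AT (adjusted p = 0.0696).

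AIMP2, the scaffold protein at the core of the complex, was called in thyroid tissue in cold, at −1.53 ± 0.406 (adjusted p = 0.0206), with 1255 and 2151 in controls 1 and 3, 1586 in control 2, and 465 to 665 in cold lambs (median 604). Its AT lambs ran from 512 to 1968 with a median of 585 and a log2FC of −1.06 ± 0.413 (adjusted p = 0.0785), and −1.54 (adjusted p = 0.00011) without AT replicate 3. Cold lambs lay below all 3 controls, and the AT lambs did so except for replicate 3. TMM scaling lost the cold call (adjusted p = 0.0606). In BAT AIMP2 read 580 and 539 in controls 1 and 3, 314 in control 2, 276 to 553 in cold and 306 to 451 in AT, and was not called at −0.55 ± 0.222 (adjusted p = 0.201) and −0.58 ± 0.222 (adjusted p = 0.113). AIMP1, the precursor of a cytokine as well as a scaffold, was above zero in all comparisons with controls 1 and 3 and called in none. It read 1528 and 1242 in BAT controls 1 and 3, 2444 in control 2, 1385 to 2272 in cold (median 1819) and 1004 to 2946 in AT (median 2149), with a log2FC of 0.35 ± 0.308 in cold (adjusted p = 0.586) and 0.61 ± 0.313 in AT (adjusted p = 0.226). Without AT replicate 6, its lowest AT library, the AT value was 0.74 and passed (adjusted p = 0.0457). In thyroid tissue its values were 2418 and 1693 in controls 1 and 3, and 4268 in control 2. Medians were 2550 in cold and 2643 in AT, with an edgeR log2FC of 0.44 ± 0.253 in cold (adjusted p = 0.225). Control 2 lay above every cold lamb (up to 3883) and every AT lamb (up to 3384), so the direction in thyroid tissue is given for controls 1 and 3 only.

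Other steps around the synthetases were read from fixed lists, on the scale of the reference genes alone. In thyroid tissue in cold that scale put 16.9% of all genes lower, against 4.97% under TMM scaling. The thyroid calls of these lists carry that limit. Of 27 tested genes for tRNA maturation and modification, 1 was called lower in BAT in cold, WDR4 at −1.23 ± 0.292 (adjusted p = 0.0458), and 1 in AT, PUS7, a pseudouridine synthase, at −1.05 (adjusted p = 0.0449), where 0.879% and 6.15% of all genes were lower. In thyroid tissue 15 of the 27 were called lower in cold, against 16.9% of all genes, and 12 in AT, against 18.7%, none higher, with medians of −0.805 and −0.687 beside −0.28 over all genes in each. METTL1, the tRNA guanine methyltransferase whose partner is WDR4, had the most negative value in both, at −1.85 ± 0.198 (adjusted p = 0.000448) in cold and −1.69 ± 0.199 (adjusted p = 0.000556) in AT. Of 5 tested cytosolic elongation factor genes, which carry charged tRNA to the ribosome, none was called in any comparison with the controls, and their median in BAT was 0.225 in cold and 0.436 in AT, beside −0.0989 and −0.031 over all genes. Of the 4 mitochondrial elongation factor genes, TUFM at −1.04 and TSFM at −0.904 were called in thyroid tissue in cold, and TSFM at −0.758 in AT, while none was called in BAT. The shares of all genes called lower in thyroid tissue were again 16.9% in cold and 18.7% in AT.

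None of the 4 genes for the mitochondrial route that makes glutaminyl-tRNA by amidation was called. Of 2 tested editing genes, which remove wrongly attached amino acids, DTD1 was lower in thyroid tissue, at −0.557 (adjusted p = 0.028) in cold and −0.648 (adjusted p = 0.013) in AT. Of 4 genes for selenocysteine tRNA and its use, EEFSEC and SEPHS2 were lower in thyroid tissue, at −1.12 and −0.723 in cold and −0.944 and −0.87 in AT, and SEPHS2 was lower in BAT in AT at −0.642 (adjusted p = 0.0487). For these editing and selenocysteine genes the shares of all genes lower were 16.9% in thyroid cold, 18.7% in thyroid AT and 6.15% in BAT AT. Of ATF4 and its targets outside the family, 1 of 19 tested in BAT was called lower in cold, against 0.879% of all genes. This was SLC7A5, the large neutral amino acid transporter, at −1.81 ± 0.294 (adjusted p = 0.0112). In AT 2 of 19 were called lower, SLC7A5 at −1.55 and ATF4 itself at −0.754, against 6.15% of all genes. In thyroid tissue 7 of 21 were called lower in cold, with ATF3 at −2.79 and the cationic amino acid transporter SLC7A1 at −2.14 the most negative, against 16.9% of all genes, and 4 of 21 in AT, a share near the 18.7% of all genes. Cold against AT called no gene of any of these lists in either tissue.

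The third question was how the family differed between the tissues, tested within the 14 lambs with the lamb as a block and on a scale common to both tissues. Of the 36 genes, 13 were higher in BAT and 5 higher in thyroid tissue at an adjusted p under 0.05, where 50.3% of the 17021 genes tested were higher in BAT and 25.9% higher in thyroid tissue. The median log2FC of BAT against thyroid tissue was 0.226 over the family and 0.314 over all genes. The split depended on the scaling. TMM, which brought the median of all genes to 0.1, gave 9 higher in BAT, against 42.1% of all genes, and 11 higher in thyroid tissue, against 33.8%. The median-of-ratios scaling gave 6 and 15, against 37.2% and 39.3%. Directions of small differences therefore follow the scale, as for KARS, at 0.32 ± 0.0884 (adjusted p = 0.00311) with the reference genes and −0.0233 (adjusted p = 0.78) by median of ratios.

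The 4 differences with a |log2FC| of at least 1 kept their direction and their call under both of these scalings. Of these, 2 were higher in BAT, where 26.9% of all genes tested were by the same rule. The other 2 were higher in thyroid tissue, where 13.4% of all genes were. CARS2 had a median of 960 in BAT (581 to 1251) and of 2341 in thyroid tissue (1678 to 4512). It was higher in thyroid tissue in 14 of 14 lambs, with no overlap and a log2FC of −1.32 ± 0.108 (adjusted p = 3.03e-09). RARS2, the mitochondrial arginyl enzyme, read 280 to 556 in BAT and 660 to 1173 in thyroid tissue, with medians of 398 and 801, again with no overlap and higher in thyroid tissue in 14 of 14 lambs, at −1.10 ± 0.0984 (adjusted p = 9.85e-09). LARS2, the mitochondrial leucyl enzyme, went the other way, from 272 to 1362 in BAT with a median of 598 and from 143 to 433 in thyroid tissue with a median of 200, higher in BAT in 14 of 14 lambs, at 1.42 ± 0.134 (adjusted p = 2.13e-08). The mitochondrial genes thus differed in both directions.

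Among cytosolic genes, WARS had the largest difference, from 1489 to 12674 in BAT with a median of 2482 and from 499 to 2529 in thyroid tissue with a median of 715. It was higher in BAT in 13 of 14 lambs, at 1.69 ± 0.219 (adjusted p = 1.55e-06). This value pools treated lambs and controls. The fitted tissue difference of WARS was larger in both treated groups than in the controls, though not called, as given below. EPRS was higher in BAT in 12 of 14 lambs, with medians of 2808 and 1286 and a log2FC of 0.88 ± 0.131 (adjusted p = 6.93e-06). YARS was higher in thyroid tissue in 14 of 14 lambs, with medians of 545 in BAT and 787 in thyroid tissue and a log2FC of −0.62 ± 0.129 (adjusted p = 0.000287), and its ranges overlapped. GARS did not pass, at 0.35 ± 0.202 (adjusted p = 0.124). Of the scaffold genes, AIMP1 was higher in BAT at 0.86 ± 0.133 (adjusted p = 1.13e-05) and AIMP2 at 0.48 (adjusted p = 0.00933), a call that neither of the other scalings kept, while EEF1E1 did not pass at 0.32 (adjusted p = 0.0738).

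**Figure D5:**
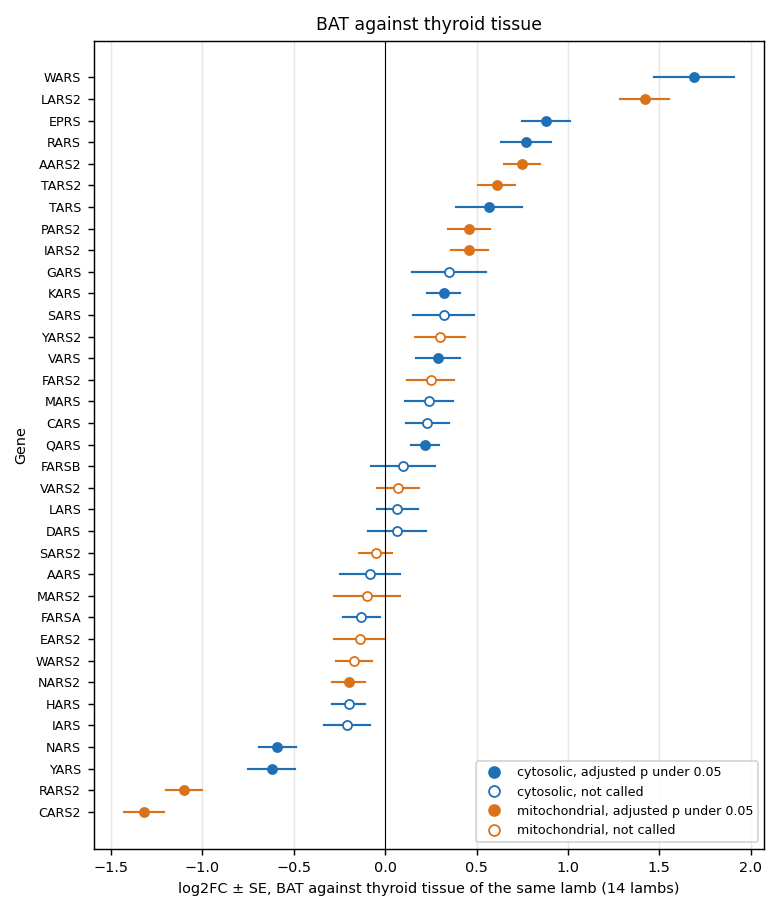
Log2FC of BAT against thyroid tissue with its SE for 35 synthetase genes, from the fit within 14 lambs on the common scale (filled points, adjusted p under 0.05; values above zero are higher in BAT). WARS at 1.69 and LARS2 at 1.42 lie at the BAT end, and CARS2 at −1.32 and RARS2 at −1.10 at the thyroid end.

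Whether the change from the controls differed between the tissues was tested directly. No synthetase gene was called for cold or for AT by edgeR's quasi-likelihood test, where 0.235% and 1.41% of all genes were. For all 20 cytosolic genes the fitted change in BAT minus that in thyroid tissue was above zero in both, with medians of 0.457 in cold and 0.422 in AT, beside 0.255 and 0.31 over all genes. With all 3 controls, 14 of the 20 were above zero in each, so that this direction also rested on which controls were used. WARS had the highest value, at 2.03 ± 0.444 in cold (adjusted p = 0.0746) and 1.59 ± 0.443 in AT (adjusted p = 0.0784). With all 3 controls CARS2 was called for AT, at 1.28 (adjusted p = 0.0376), a call that brings in the thyroid library of control 2, in which CARS2 read 14134 against 4021 and 7102 in controls 1 and 3.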

How the data were processed

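RNA was sequenced from BAT and thyroid tissue of 15 lambs (30 libraries). The authors deposited raw read counts per gene, made from TRIzol RNA, oligo(dT) selection, BGISEQ-500 read pairs, FastQC 0.11.9, Trimmomatic 0.39, STAR 2.7.7a on Oar_rambouillet_v1.0 and featureCounts (Subread 2.0.0), with multi-mapping reads counted. The strand setting was not given in the sources used here.

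From these counts, edgeR 4.0.16 in R 4.3.3 (quasi-likelihood test, robust) was fitted per tissue to all 3 groups with size factors from 3 reference genes, a minimum of 10 reads in 10 or more libraries, and controls 1 and 3, as the study kept them. P-values were adjusted over all tested genes (Benjamini-Hochberg), and an adjusted p under 0.05 is a call. Replicates were lambs. Tissues were compared within 14 lambs, since a lamb's number marks both its libraries. DESeq2 1.42.0 and other settings were alternatives. The counting depth bounds the precision of MARS2 most. On simulated data the fits returned the fold changes put in, but most changes of 1 on the log2 scale went uncalled against 2 controls. Permutation tests used Python 3.11.15 and scipy 1.17.1, 100000 resamples, on log2(normalised count + 1).

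Named genes were up to 3 called members per direction with the largest log2FC in each comparison, and always WARS, GARS, KARS and the 3 scaffold genes; other genes come from lists, with up to 4 of the most changed. Members and lists were chosen with earlier results of these data known. No sequences or coordinates were used, since the gene table at hand belongs to another genome build. One gene of the family is counted throughout but not reported by name here.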

Additional observations from a re-analysis of the deposited data

Results flagged for a closer look

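In groups of 6 lambs, 9 of 56 combinations of a named gene and a group held a library whose gap to its nearest neighbour exceeded 0.625 of the range of the group. Gaps and ranges were taken on log2 values, while the values printed beside them are normalised counts. Chance alone gives about 1 in 20 for independent, normally distributed values. Genes of the same library are not independent, so these 9 cannot be set against that rate.

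Of these, 6 were the thyroid library of AT replicate 3 standing highest. Its normalised counts were 793 for EEF1E1, against 218 to 245 in the other 5 (gap of 0.910 of the range), 4654 for EPRS (gap 0.783), 2881 for YARS (gap 0.781), 5238 for GARS (gap 0.780), 1968 for AIMP2 against 512 to 704 (gap 0.764), and 359 for EARS2 against 191 to 234 (gap 0.677). WARS in thyroid tissue was highest in cold replicate 1, at 4059 (gap 0.853).

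In BAT, AIMP1 was lowest in AT replicate 6, at 1004 (gap 0.675), and CARS2 was lowest in cold replicate 6, at 356 against 575 to 665 in the other cold lambs (gap 0.766).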

How the results depend on the processing

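Of 1064 log2FC values of the named genes recomputed under other settings, 948 kept their direction and their side of the threshold, 65 lost a call, 18 gained one, and 32 that were not called changed sign, among them KARS in BAT in cold with all 3 controls (−0.17). The 1 called value that changed sign was KARS in BAT against thyroid tissue, −0.0233 by median of ratios. In each tissue, cold against AT called no synthetase gene in any setting run.

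In BAT, the count in cold (2) was 4 with DESeq2, 5 with all 3 controls, and 0 without the low-count filter or with the |log2FC| rule. Of all genes, 0.879% were lower and 0.604% higher in BAT in cold, and 3.18% and 2.97% with all 3 controls. The count in BAT in AT (5) was 0 with only the 2 groups in the fit and 1 with the |log2FC| rule. In thyroid tissue, the count in cold (12) was 4 with TMM or median-of-ratios scaling, 21 with only the 2 groups in the fit and 5 with the |log2FC| rule. In AT (10) it was 6 with the RNA integrity number as a covariate or all 3 controls, 3 with TMM or median of ratios, 0 with only the 2 groups in the fit and 4 with the |log2FC| rule. The share of all genes lower in thyroid tissue went from 16.9% to 4.97% in cold with TMM. In AT it went from 18.7% to 4.7% with TMM and to 13.6% with all 3 controls. For most other settings that share is not given here, so shifts of the family and of all genes cannot be told apart. The thyroid cold medians (−1.02 cytosolic, −0.47 mitochondrial) were −0.69 and −0.16 with either scaling and −0.80 and −0.30 with all 3 controls. The AT mitochondrial median (−0.43) was −0.11 with either scaling and −0.27 with all 3 controls. The causes were not tested.

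Lambs were left out 1 at a time, and where this was a control, control 2 took its place, so that these values mix both changes. The count ran from 0 to 8 in BAT cold (0 without cold replicate 6, 8 with control 2 in place of control 3), 4 to 9 in BAT AT, 6 to 22 in thyroid cold and 5 to 22 in thyroid AT (lowest with control 2 in place of control 3, highest without AT replicate 3). Without AT replicate 3, 25.9% of all genes were lower in thyroid cold and 30% in thyroid AT. For the other fits named here the share of all genes is not given. The cytosolic medians ran from −0.56 to −0.43, −0.54 to −0.43, −1.06 to −0.47 and −1.11 to −0.29 in these comparisons, and the mitochondrial ones from −0.37 to −0.19, −0.17 to −0.00845, −0.49 to −0.00609 and −0.53 to −0.12. For cold against AT the cytosolic medians ran from −0.086 to 0.039 in BAT and −0.27 to 0.1 in thyroid tissue, and the mitochondrial ones from −0.24 to −0.0202 and −0.0583 to 0.0568.

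BAT against thyroid tissue called 18 genes, against 76.2% of all genes, and 4 with the |log2FC| rule, against 40.3%. The count was 16 with no block for the lamb, where the pairing of libraries was ignored. The tissue difference in AT was called for 1 gene with all 3 controls. No paired analysis was possible within a tissue, because each lamb belongs to 1 group.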

Other observations

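Control 2, the lamb outside the fits, had the highest BAT level of any library for KARS (7332 normalised counts) and EPRS (4681), and its summed cytosolic synthetase count in BAT was 32583, against 24383 and 23504 in controls 1 and 3. Its brown adipocyte marker sum in BAT was 90650, against 28783 and 23899. In its thyroid tissue CARS2 read 14134.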
